A study of Mus musculus with 2 samples.

Results

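The Arp2/3 complex was described here through the transcripts of its 9 subunit genes, Actr2, Actr3, Arpc1a, Arpc1b, Arpc2, Arpc3, Arpc4, Arpc5 and Arpc5l, which were chosen by name and not by their levels, out of 31017 gene symbols measured in mouse spleen cells. The list of members was chosen with earlier results of these data known. The study profiled spleen cells with droplet-based 3-prime single-cell RNA sequencing to identify immune cells in mice that model Wiskott-Aldrich syndrome. The labels name 2 samples from mice 6-8 weeks old, 1 labelled WAS, from a WAS-KO mouse or mice (a knockout of Was, the gene of the actin regulator WASP), and 1 labelled WT. The strain, the sex, the number of mice pooled and the design of the knockout allele were not given in the sources used here. Counts came as 1 table in which nothing ties a cell barcode to a sample. All values below therefore describe 1 pooled set of cells, the genotypes were not compared, and a difference between cell types cannot be told apart from a difference in their share of WAS-KO cells.

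The Arp2/3 complex binds the side of an existing actin filament and starts a new filament from it as a branch. Arp2 and Arp3, the actin-related subunits encoded by Actr2 and Actr3, form the base of the daughter filament, while the ARPC subunits hold the complex together and on the mother filament. WASP switches the complex on in blood cells, where branched actin serves migration, phagocytosis and the contacts between immune cells. The ARPC1 subunit is made from either Arpc1a or Arpc1b and the ARPC5 subunit from either Arpc5 or Arpc5l, so complexes of different composition can form. Complexes that hold ARPC1B and ARPC5L are known to promote actin assembly more strongly than those that hold ARPC1A and ARPC5, and inherited loss of ARPC1B in people causes an immune deficiency with platelet abnormalities.

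The balance of the ARPC5 paralogues differed between cell types. Arpc5l held 54.6% of the UMIs (unique molecular identifiers, each counting 1 captured transcript) of Arpc5 and Arpc5l in B cells, 30.4% to 34.1% in T and NK cells, 45.5% in plasma cells, 13.9% in monocytes and 6.77% in neutrophils. It held 4.76% in megakaryocytes or platelets, on 1 of 21 UMIs. Arpc1b held 86.7% to 93.8% of the UMIs of Arpc1a and Arpc1b in 8 of 11 cell types (CD4 and CD8 T cells counted separately), but 72.5% in plasma cells, 50% in megakaryocytes or platelets (13 of 26 UMIs) and 46.2% in erythroid cells. Per total UMIs, the 9 members together were highest in megakaryocytes or platelets and in monocytes, and lowest in plasma and erythroid cells. The order at the top changed with the scaling: with edgeR's TMM factors the log2 ratio of their sum to B cells was 1.52 in neutrophils, 0.63 in monocytes and -0.14 in megakaryocytes or platelets.

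The promoters of 4 members are shown because Arpc1a and Arpc1b, which lie next to each other with 5453 bases between them, had different patterns over the cell types, whereas Arpc5 and Actr3 resembled most other members. RefSeq's promoter table (GRCm38.p6) held 8 of the 9 members, all but Arpc5l. Each line gives 200 bases 5′ to 3′ on the gene's strand, starting 250 bases before the RefSeq start, and the 50 bases next to the start are not printed. Capitals mark letters that match, on either strand, the GC box GGGCGG, the CCAAT box CCAAT, the ETS motif CCGGAAG or the E-box CACGTG.
Arpc1a: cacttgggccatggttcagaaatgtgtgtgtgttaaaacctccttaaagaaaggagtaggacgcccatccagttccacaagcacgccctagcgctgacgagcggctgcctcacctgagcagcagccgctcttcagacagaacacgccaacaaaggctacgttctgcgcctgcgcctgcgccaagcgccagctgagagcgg
Arpc1b: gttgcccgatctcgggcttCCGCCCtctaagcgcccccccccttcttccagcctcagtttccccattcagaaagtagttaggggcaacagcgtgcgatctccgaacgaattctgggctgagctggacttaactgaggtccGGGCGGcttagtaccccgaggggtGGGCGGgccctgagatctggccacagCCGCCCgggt
Arpc5: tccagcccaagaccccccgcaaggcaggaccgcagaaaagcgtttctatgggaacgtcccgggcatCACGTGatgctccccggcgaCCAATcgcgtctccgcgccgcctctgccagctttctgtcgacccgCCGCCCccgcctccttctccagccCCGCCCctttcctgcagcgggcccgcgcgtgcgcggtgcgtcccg
Actr3: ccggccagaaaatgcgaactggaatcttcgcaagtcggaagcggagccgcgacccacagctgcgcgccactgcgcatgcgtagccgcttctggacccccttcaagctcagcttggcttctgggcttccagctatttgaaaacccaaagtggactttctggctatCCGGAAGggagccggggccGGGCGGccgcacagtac
These stretches lie at chr5:145083619-145083818 (plus strand), chr5:145114006-145114205 (plus), chr1:152766292-152766491 (plus) and chr1:125435778-125435977 (minus). Over the whole 250 bases, Arpc1b had 7 GC boxes, Arpc5 3, Actr3 1 and Arpc1a 0. The 8 promoters had 51.2% to 74.4% G and C bases, against a median of 52.4% over all promoters. The part of base composition in the motif shares that follow was not tested. A GC box was found in 5 of the 8 promoters, against 32.7% of all 32851 promoters of the same length. The ETS motif was found in 5 of the 8, those of Actr2, Actr3, Arpc1a, Arpc3 and Arpc4, against 6.91% of all, and the match of Arpc1a lies in the part next to the start that is not printed. CCAAT was found in 2 of the 8, those of Actr2 and Arpc5, against 33.8% of all, and CACGTG in 1, that of Arpc5, against 6.02%. The TATA box TATAAA (12.4% of all promoters), the GATA motif AGATAA (9.99%) and the AP-1 motif TGAGTCA (4.46%) were found in 0 of the 8. None of the motif strings holds another, and a match describes letters and shows no binding.

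In GRCm38 with the GENCODE vM21 annotation, all 9 members are protein-coding genes. Arpc1a lies on chromosome 5 from 145083830 to 145108761 and Arpc1b on chromosome 5 from 145114215 to 145130705, both on the plus strand. Arpc5 lies on chromosome 1 from 152766542 to 152775597, Arpc5l on chromosome 2 from 39005348 to 39015877, Arpc2 on chromosome 1 from 74236084 to 74268209, Arpc3 on chromosome 5 from 122391878 to 122414184 and Arpc4 on chromosome 6 from 113378115 to 113390448, all on the plus strand. Actr2 lies on chromosome 11 from 20062304 to 20112913 and Actr3 on chromosome 1 from 125392905 to 125435727, both on the minus strand. The longest run of bases shared by transcripts of Arpc1a and Arpc1b was 21, and it was 21 for Arpc5 and Arpc5l, so their reads can be told apart. Of the 60-base words in the last 500 bases of a member's transcripts, other genes share 30% for Actr3 (Gm15899 and Gm8822), 15.0% for Arpc4 (Ttll3, which overlaps it on the same strand) and 6.39% for Arpc1b (Gm5637 and Gm7382). Gm15899, Gm8822, Gm5637 and Gm7382 are not among the gene symbols measured, and Ttll3 had 924 UMIs in the cells kept. These percentages are shares of words and not of UMIs, so they do not give the part of a member's counts that is uncertain. Arpc5l overlaps Wdr38 on its own strand and the ribosomal protein gene Rpl35 on the other, and whether the counting used strand is not given in the sources used here.

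Of 7524 barcodes, 6588 had at least 200 genes and at most 10% mitochondrial UMIs. They held 44751473 UMIs, 129974 of them from the members, with a median of 5339 per cell. Cells were gated as a cell type where at least 2 of its 8 marker genes had a UMI and at least 2 times as many as of any other list. All 8 own markers were detected in each of the 10 cell types described. From 2 of them (erythroid cells) to 7 (NK cells) were among the 10 leading genes of a gate. The gates were drawn on these markers, so this is no independent check of the cell types. The gates held 2973 B cells, 1044 T cells (499 with Cd4 and no Cd8 transcripts, 316 the reverse), 386 macrophages, 345 erythroid cells, 298 NK cells, 162 neutrophils, 117 monocytes, 71 conventional dendritic cells, 39 plasma cells and 25 megakaryocytes or platelets. Their median depth ran from 777 UMIs in megakaryocytes or platelets and 838 in macrophages to 27110 in plasma cells, and haemoglobin took 72.9% of the UMIs in erythroid cells and 34.2% in macrophages. Levels are in CPM, the UMIs of a gene per 1000000 UMIs of the gate, with an exact Poisson 95% interval in brackets. Cells of 1 table are not replicates, so nothing was tested and intervals cover counting error only. UMIs were not scaled to gene length, so levels are compared between cell types and not between genes. Orders and overlaps of levels given below hold for scaling to total UMIs and can change with another scaling.

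**Figure D1:**
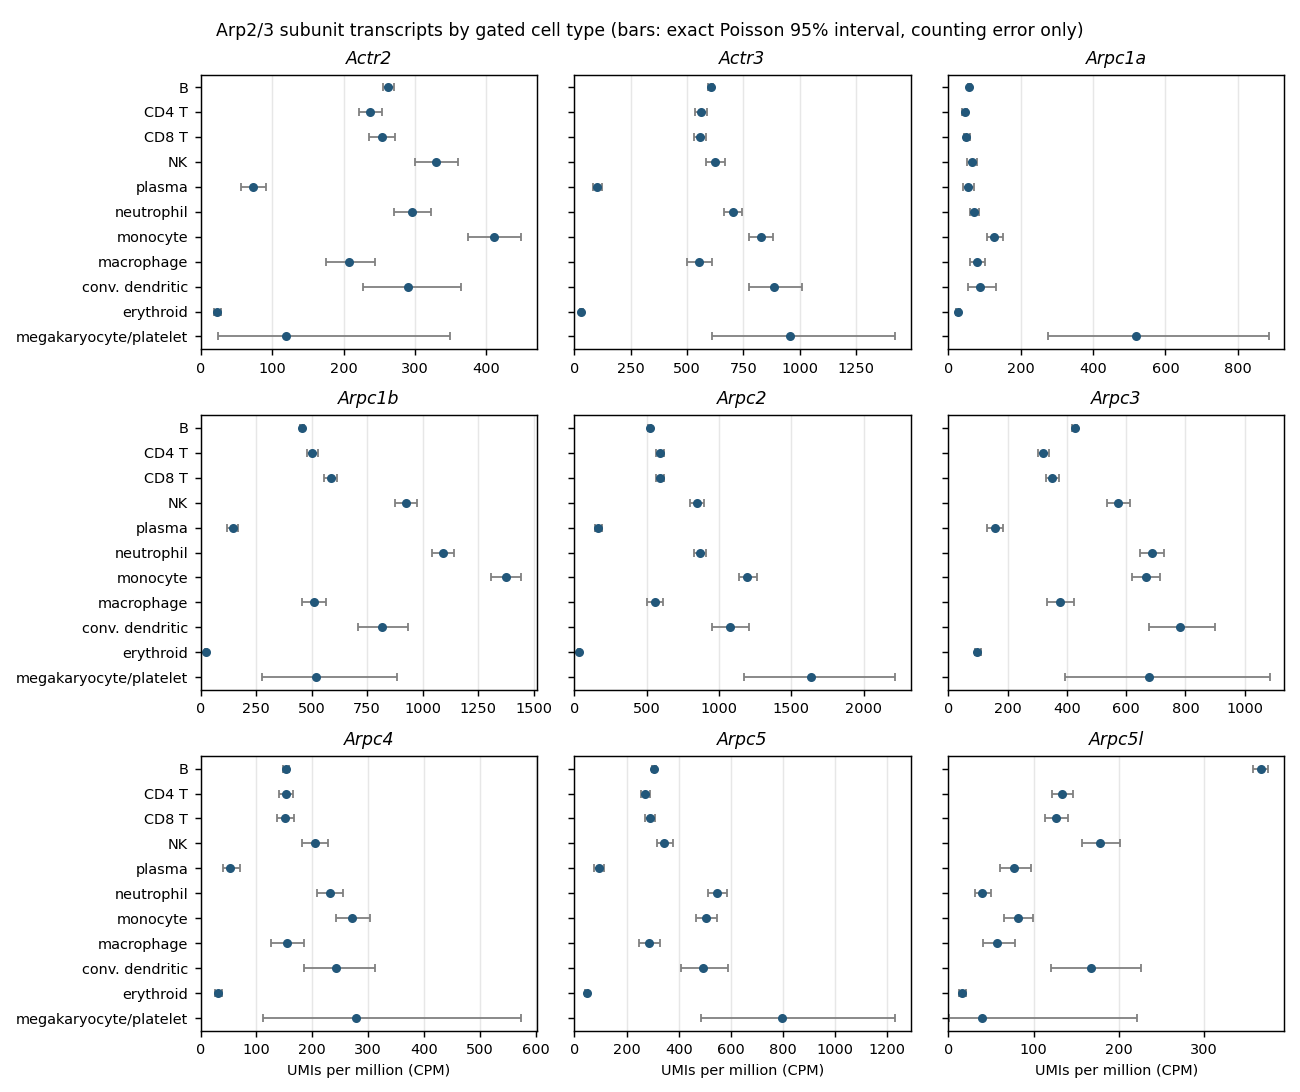
Levels of the 9 Arp2/3 genes in 11 gated cell types in CPM (linear axes, a scale of its own for each gene); points are pooled sums of a gate and bars exact Poisson 95% intervals. Arpc5l is highest in B cells at 367 CPM, whereas Arpc1b is highest in monocytes at 1374 CPM, and the bars of the 25 megakaryocytes or platelets are wide.

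Actr3, which encodes Arp3, was measured at 956 CPM (612 to 1422) in megakaryocytes or platelets, 887 (774 to 1011) in conventional dendritic cells, 828 (777 to 882) in monocytes, 703 (664 to 744) in neutrophils and 626 (586 to 668) in NK cells. It stood at 605 CPM (594 to 617) in B cells, 561 (536 to 586) in CD4 T cells, 557 (529.8 to 585) in CD8 T cells and 552 (499 to 609) in macrophages. It was much lower in plasma cells, at 99.6 CPM (80.8 to 122), and in erythroid cells, at 29.7 CPM (24.5 to 35.7). Per total UMIs, CD4 T cells, CD8 T cells and macrophages overlapped, B cells lay above the CD4 and CD8 T cells, and NK cells overlapped B cells. This order changed without haemoglobin, immunoglobulin, mitochondrial and ribosomal protein UMIs in the totals. Actr3 then stood at 941 CPM in B cells, 800 in NK cells, 904 in CD4 T cells, 912 in CD8 T cells and 1091 in macrophages.

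Actr2, which encodes Arp2, had its highest level in monocytes, at 411 CPM (375 to 449), apart from the 329 (300.2 to 360.1) of NK cells that came next. Neutrophils had 296 CPM (270.3 to 323), conventional dendritic cells 290.2 (227 to 365), B cells 262 (255 to 270.0), CD8 T cells 253 (235 to 273), CD4 T cells 237 (222 to 254) and macrophages 207 (175 to 243). From NK cells down to megakaryocytes or platelets, which had 119 CPM (24.6 to 349) on 3 UMIs, each interval overlapped that of its neighbour in the order. Plasma cells with 72.9 CPM (56.9 to 92.0) and erythroid cells with 22.9 CPM (18.3 to 28.2) were lowest.

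Arpc2 and Arpc4 form the core that grips the mother filament. Arpc2 stood at 1633 CPM (1172 to 2215) in megakaryocytes or platelets, 1197 (1135 to 1261) in monocytes, 1073 (949 to 1209) in conventional dendritic cells, 867 (823 to 913) in neutrophils and 845 (798 to 894) in NK cells. In CD4 T cells it stood at 592 CPM (567 to 618), in CD8 T cells at 589 (561 to 618), in macrophages at 557 (504 to 615) and in B cells at 522 (512 to 533), then at 165 (141 to 193) in plasma cells and 33.4 (27.8 to 39.7) in erythroid cells. NK cells thus lay above all T and B cells in Arpc2, and the megakaryocytes or platelets, monocytes and conventional dendritic cells lay above NK cells.

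Arpc4 stood at 279 CPM (112 to 574) in megakaryocytes or platelets, 271 (242 to 302) in monocytes, 243 (186 to 312) in conventional dendritic cells, 231 (208 to 255) in neutrophils and 204 (181 to 229) in NK cells. Macrophages had 154 CPM (127 to 186), B cells 153 (147 to 159), CD4 T cells 153 (139.9 to 166) and CD8 T cells 151 (137 to 166), values that could not be told apart. Plasma cells had 53.4 CPM (39.9 to 70.0) and erythroid cells 31.3 (25.9 to 37.4).

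Arpc3, the subunit that sits at Arp3, was highest in conventional dendritic cells at 783 CPM (678 to 901), overlapping with neutrophils at 687 (648 to 727), megakaryocytes or platelets at 677 (394 to 1084) and monocytes at 667 (621 to 715). NK cells had 573 CPM (535 to 614) and B cells 426 (416 to 436). Macrophages followed with 375 CPM (332 to 423), CD8 T cells with 351 (329 to 373), CD4 T cells with 320.0 (301 to 339), plasma cells with 156 (132 to 183) and erythroid cells with 98.3 (88.6 to 109). B cells thus had more Arpc3 than CD4 or CD8 T cells, beyond the counting intervals.

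Arpc1b, the form of ARPC1 known as the main one of white blood cells, was highest in monocytes, neutrophils, NK cells and conventional dendritic cells. It stood at 1374 CPM (1308 to 1443) in monocytes, 1091 (1042 to 1142) in neutrophils, 926 (877 to 977) in NK cells and 815 (707 to 935) in conventional dendritic cells. It was lower in CD8 T cells at 585 CPM (558 to 614), megakaryocytes or platelets at 518 (276 to 885), macrophages at 509.7 (459 to 565), CD4 T cells at 503 (479 to 527) and B cells at 458 (448 to 467). Plasma cells had 144 CPM (121 to 169.6) and erythroid cells 22.3 (17.8 to 27.6). The 4 highest cell types did not overlap with the 7 others, except that the wide interval of megakaryocytes or platelets reached into those of NK and conventional dendritic cells.

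Arpc1a, its neighbour on chromosome 5, had another order. It stood at 518 CPM (276 to 885) in megakaryocytes or platelets, apart from the 128 (108 to 149.9) of monocytes that came next. Below them, conventional dendritic cells had 87.5 CPM (54.8 to 132), macrophages 78.4 (59.2 to 102), neutrophils 72.0 (59.7 to 86.0), NK cells 64.3 (51.9 to 78.8), B cells 58.3 (54.8 to 61.9), plasma cells 54.4 (40.8 to 71.2), CD8 T cells 50.3 (42.4 to 59.3) and CD4 T cells 45.3 (38.5 to 53.0), each overlapping its neighbour. Erythroid cells had 26.0 CPM (21.1 to 31.7). The level in plasma cells was close to that in B cells, unlike that of the other 8 members.

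The share of Arpc1b among the UMIs of both ARPC1 genes does not depend on how a gate's total is scaled. It was 93.8% (exact binomial 95% interval 92.6 to 94.8) in neutrophils, 93.5% (92.1 to 94.7) in NK cells, 92.1% (90.7 to 93.3) in CD8 T cells, 91.7% (90.4 to 92.9) in CD4 T cells and 91.5% (90.1 to 92.8) in monocytes. Conventional dendritic cells had 90.3% (85.7 to 93.8), B cells 88.7% (88.0 to 89.3) and macrophages 86.7% (83.0 to 89.8). Neighbours in this order overlapped, although B cells lay below the 5 cell types named before conventional dendritic cells.

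Plasma cells, with 72.5% (65.7 to 78.7), megakaryocytes or platelets, with 50% (29.9 to 70.1), and erythroid cells, with 46.2% (38.8 to 53.7), had lower Arpc1b shares, apart from the 8 other cell types. The share of megakaryocytes or platelets rests on 13 Arpc1b and 13 Arpc1a UMIs in 25 cells, and that of erythroid cells on 85 and 99 in 345 cells. In 64 erythroid cells with UMIs of at least 3 of 8 cell cycle genes it was 36.5% (26.9 to 46.9), and in 66 with none it was 57.1% (28.9 to 82.3) on 14 UMIs of both genes, so that the intervals overlapped. Among the cell types that could be measured, erythroid cells had the lowest share as reported and under 8 of 9 alternative filters, gates or depth subsets; with at most 5% mitochondrial UMIs, megakaryocytes or platelets were lowest at 45.5%.

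Markers of other cell types were present beside these values, although the gate rule itself limits the markers of other lists in a gate. In erythroid cells the 8 B cell markers summed to 50.5 CPM, 0.491% of their level in B cells, with 0 at 0, and the immunoglobulin genes Ighm and Igkc stood at 2.67% of theirs. Macrophage markers summed to 55.2 CPM there, plasma cell markers to 37.6, neutrophil markers to 34.7 and each other foreign list to at most 12.4. Arpc1b stood at 4.88% of its B cell level in erythroid cells, Actr3 at 4.91%, Arpc5l at 4.37%, Arpc3 at 23.1% and Arpc1a at 44.6%. In megakaryocytes or platelets the B cell markers stood at 2.71% of their B cell level, with 4 of 8 at 0, and Ighm and Igkc at 22.1%, while Arpc1a stood at 888%. The 8 NK cell, 8 conventional dendritic cell and 8 erythroid markers were all at 0 there, the monocyte markers summed to 279 CPM with 6 of 8 at 0, and the plasma cell markers to 239 CPM with 7 of 8 at 0. The part of transcripts from other cells in the shares of these gates was not tested.

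**Figure D2:**
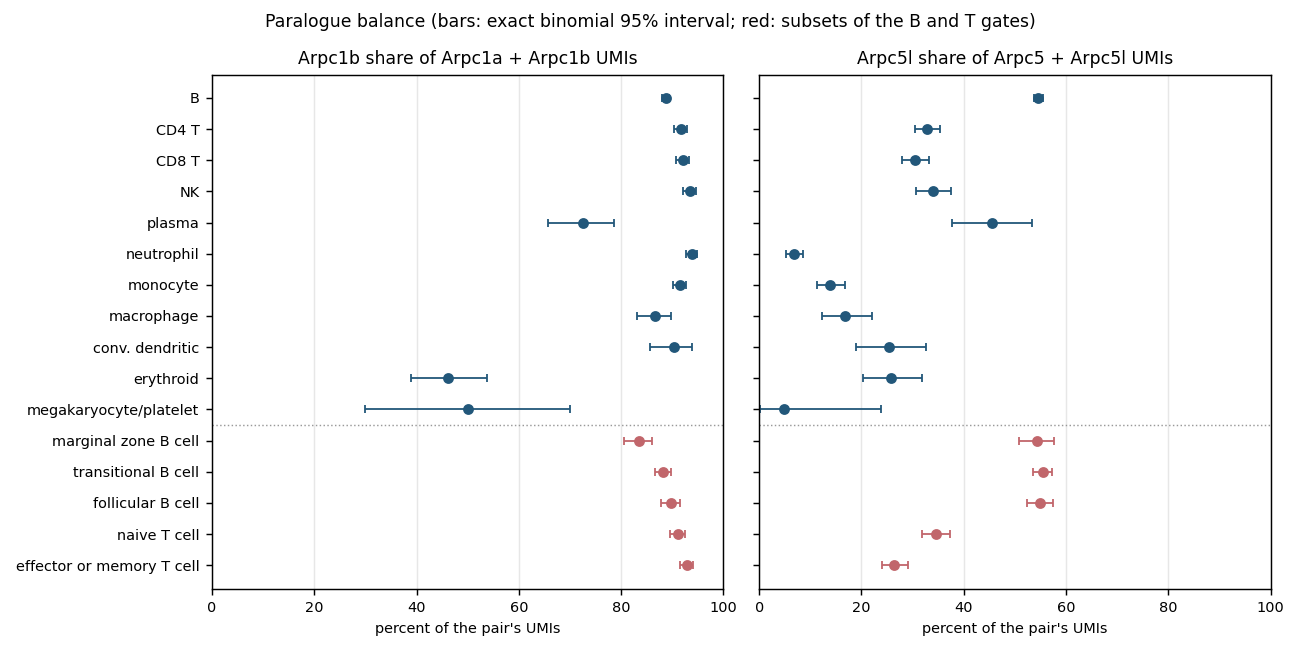
Paralogue balance in percent of the UMIs of both genes, Arpc1b on the left and Arpc5l on the right; points are pooled sums of a gate, bars exact binomial 95% intervals, and red marks subsets of the B and T cell gates. The Arpc5l share goes from 54.6% in B cells to 6.77% in neutrophils, and the Arpc1b share is lowest in plasma cells, megakaryocytes or platelets and erythroid cells.

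Arpc5l, the second form of ARPC5, was the member with its highest level in B cells. It stood there at 367 CPM (358 to 376), apart from the 178 (157 to 202) of NK cells that came next. Conventional dendritic cells had 167 CPM (120.3 to 226), CD4 T cells 133 (121 to 146) and CD8 T cells 127 (114 to 140.3), each overlapping its neighbour. Monocytes had 81.4 CPM (65.9 to 99.5), plasma cells 77.0 (60.6 to 96.5), macrophages 57.4 (41.2 to 77.9), neutrophils 39.9 (30.9 to 50.6) and erythroid cells 16.0 (12.3 to 20.6). In megakaryocytes or platelets 1 UMI was counted, which gives 39.8 CPM (1.01 to 222).

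Arpc5, its paralogue, had another order. It stood at 797 CPM (487 to 1230.3) in megakaryocytes or platelets, 549 (514 to 585) in neutrophils, 505 (465 to 547) in monocytes and 493 (410.0 to 588) in conventional dendritic cells, each overlapping its neighbour. NK cells followed with 345 CPM (315 to 377) and B cells with 305 (297 to 314). CD8 T cells had 289 CPM (269.7 to 309), macrophages 286 (248 to 328), CD4 T cells 272 (255 to 289.8), plasma cells 92.4 (74.3 to 114) and erythroid cells 46.3 (39.7 to 53.6). Per total UMIs, neutrophils thus had 1.80 times the Arpc5 level of B cells and 10.9% of their Arpc5l level; under the 3 other scalings described below, the log2 ratio of Arpc5 was 0.31 to 1.85.

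The Arpc5l share was 54.6% (53.7 to 55.4) in B cells, from 6604 Arpc5l and 5502 Arpc5 UMIs, and 45.5% (37.7 to 53.4) in plasma cells, from 75 and 90. It was 34.1% (30.7 to 37.6) in NK cells, 32.9% (30.4 to 35.4) in CD4 T cells and 30.4% (27.8 to 33.1) in CD8 T cells, each overlapping its neighbour. Erythroid cells had 25.7% (20.3 to 31.8), conventional dendritic cells 25.3% (18.9 to 32.6), macrophages 16.7% (12.3 to 22.0) and monocytes 13.9% (11.4 to 16.7). Neutrophils had 6.77% (5.29 to 8.52), from 67 Arpc5l and 922 Arpc5 UMIs, and megakaryocytes or platelets 4.76% (0.120 to 23.8). B cells lay above all the others, and macrophages, monocytes and neutrophils below the T and NK cells.

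Among the cell types that could be measured, B cells had the highest Arpc5l share as reported and under each of 9 alternative filters, gates or depth subsets, between 53.7% and 55.4%. Plasma cells, next in the order as reported, could be measured under 7 of these alternatives. The low values were less stable. In neutrophils the share was 2.65% after thinning each cell to 1000 UMIs, on 113 UMIs of both genes, and in macrophages 8.33%, on 72. In macrophages without a UMI of any other list's marker it was 29.0%, on 31 UMIs.

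B cells, T cells and neutrophils were also compared cell by cell at equal depth. After thinning to 1000 UMIs, an Arpc5l UMI was found in 31.4% (29.7 to 33.1) of B cells (median depth before thinning 5120 UMIs, 82.5% unthinned), 11.9% (9.97 to 14.0) of T cells (6884 UMIs, 58.6% unthinned) and 1.90% (0.393 to 5.45) of neutrophils (10149.5 UMIs, 29.6% unthinned). An Arpc5 UMI was found in 28.0% of B cells, 19.7% of T cells and 48.7% of neutrophils. Thinning left out 26 B cells, 8 T cells and 4 neutrophils that were shallower. T cells, although deeper than B cells, thus had an Arpc5l UMI in a smaller share of cells, with intervals that did not overlap.

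Cd79a is a B cell receptor subunit that T cells and neutrophils should lack. It had a UMI in 94.1% of thinned B cells, 2.03% (1.26 to 3.08) of T cells and 1.27% (0.154 to 4.50) of neutrophils. The Arpc5l share lay above that of Cd79a in T cells and overlapped it in neutrophils. Cd79a cannot serve as a background for Arpc5l, because it is a B cell gate marker that the gate rule limits in other gates. It was also found in a larger share of B cells than Arpc5l. In NK cells 15.8% (11.9 to 20.5) had an Arpc5l UMI and 5.05% (2.85 to 8.19) a Cd79a UMI, whereas in erythroid cells the Arpc5l share of 1.21% was below the 1.82% of Cd79a. Over the whole list, which the gate rule limits likewise, the 8 B cell markers stood at 0.932% of their B cell level in T cells and 0.672% in neutrophils, with 0 of 8 at 0 in both. Ighm and Igkc, which are not gate markers, stood at 5.38% and 3.79%. The part of B cell RNA in the Arpc5l counts of these gates was not tested.

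Within the B cells the ARPC5 balance hardly varied. The Arpc5l share was 54.3% (50.8 to 57.7) in 167 marginal zone cells, 55.4% (53.5 to 57.4) in 522 transitional cells and 55.0% (52.4 to 57.5) in 453 follicular cells, gated by subset markers. Within the T cells it was 34.6% (31.8 to 37.4) in 470 naive cells and 26.4% (23.9 to 29.1) in 267 effector or memory cells, which did not overlap. Among the cells below the median depth of their gate, however, it was 33.4% in naive and 32.5% in effector or memory cells. The Arpc1b share was 83.4% (80.6 to 86.0) in marginal zone cells, below the 89.8% (87.8 to 91.5) of follicular and the 88.3% (86.6 to 89.8) of transitional cells.

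**Figure D3:**
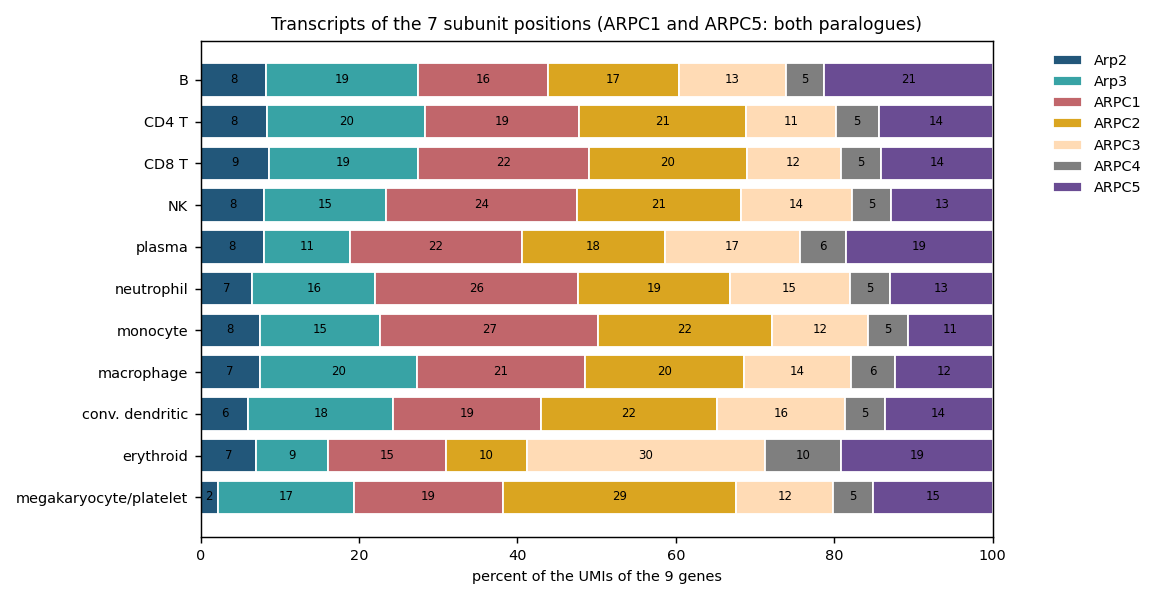
Percent of the UMIs of all 9 genes that fall to each of the 7 subunit positions in each gate, with both paralogues of ARPC1 and of ARPC5 added up. ARPC5 takes 21.3% in B cells against 10.7% in monocytes, and ARPC3 takes 30.1% in erythroid cells.

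With both paralogues added up, the composition of the members' UMIs still differed between cell types. ARPC5 took 21.3% (21.0 to 21.6) of the 56863 member UMIs in B cells, 14.2% (13.8 to 14.7) in T cells, 12.97% (12.2 to 13.7) in neutrophils and 10.7% (9.99 to 11.5) in monocytes. ARPC1 had the reverse order, with 16.3% (16.0 to 16.6) in B cells, 20.2% (19.7 to 20.8) in T cells, 25.6% (24.7 to 26.6) in neutrophils and 27.5% (26.4 to 28.6) in monocytes. Arp3 took 19.2% (18.9 to 19.5) in B cells and 19.5% (19.0 to 19.998) in T cells, but 10.9% (8.92 to 13.1) in plasma cells and 9.11% (7.56 to 10.8) in erythroid cells.

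Erythroid cells had the most unlike composition of the positions ARPC3 and ARPC4. ARPC3 took 30.1% (27.6 to 32.8) of the member UMIs there, against 11.4% to 17.1% in the 10 other cell types, and ARPC4 9.59% (8.01 to 11.4), against 4.84% to 5.84%. These shares are parts of 1 sum, so a larger share of a position lowers the others.

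The members were then set against all genes. A gene was called higher or lower where its level differed by at least 1.5-fold, considering genes whose UMIs in both gates added up to at least 100. A count of 0 was set to 3 counts, but never past equality with the other gate. In small gates most genes pass the minimum of 100 UMIs through their B cell UMIs. Over the 10 comparisons of a cell type with B cells, which share the B cell gate, 26 of 90 member values were higher, against 14.2% of all genes tested, and 26 were lower, against 43.9%. Arpc5l was lower in each of the 10 comparisons, in megakaryocytes or platelets on 1 UMI, and Arpc2 was higher in 5 of them. The share of all genes lower went from 10.5% to 88.7% over the 10 comparisons, and the share higher from 5.28% to 23.1%. How many genes were lower in all 10, or higher in 5, was not counted. Without haemoglobin, immunoglobulin, mitochondrial and ribosomal protein UMIs in the totals, 14 member values were higher, against 15.1% of all genes, which is a share near the background.

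**Figure D4:**
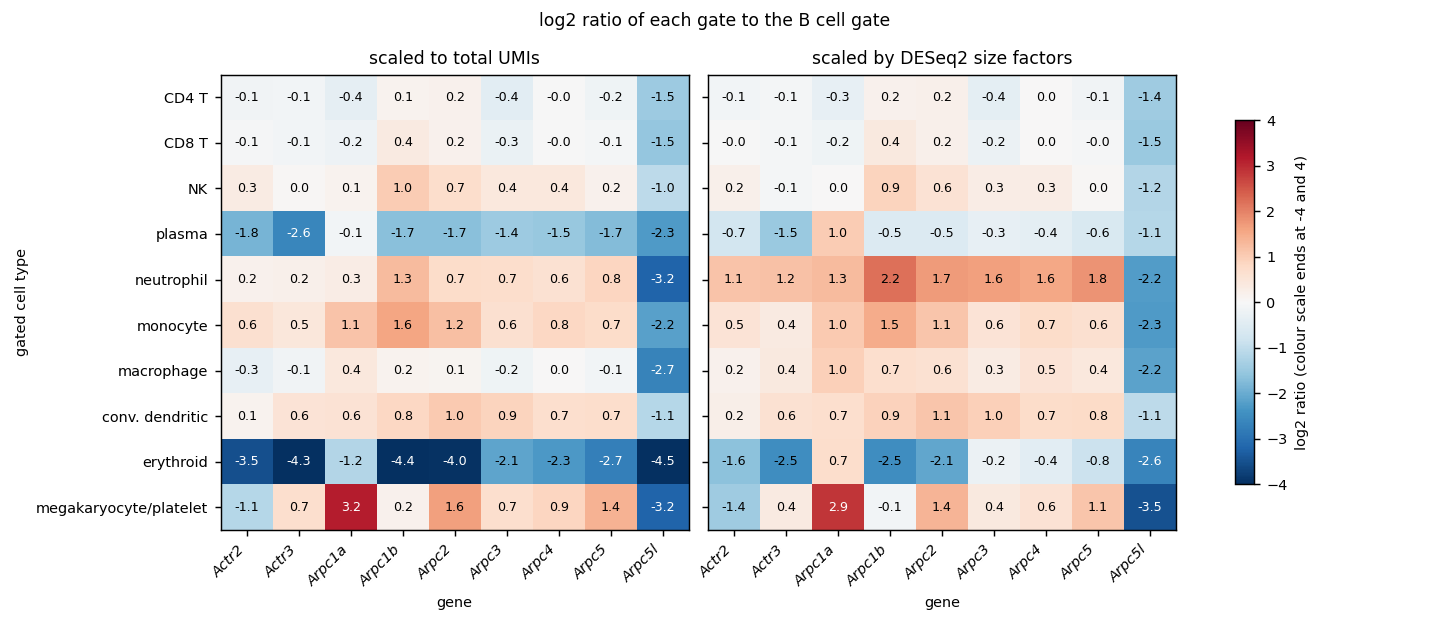
log2 ratio of the level of each Arp2/3 gene in each gate to that in B cells, scaled to total UMIs on the left and by DESeq2 size factors on the right (colours end at -4 and 4). Arpc5l is negative in every gate under both scalings, from -1.04 in NK cells to -4.51 in erythroid cells by total UMIs, whereas Arpc1a in erythroid cells goes from -1.16 to 0.71.

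Scaled to total UMIs, monocytes had more of most subunits than B cells. In them 7 members were higher, against 23.1% of all genes, and 1 was lower, against 30.7%. The log2 ratio was 1.59 (1.51 to 1.66) for Arpc1b, 1.20 (1.11 to 1.28) for Arpc2, 1.13 (0.87 to 1.38) for Arpc1a and -2.17 (-2.48 to -1.88) for Arpc5l. The member within 1.5-fold was Actr3, at 0.45 (0.36 to 0.55). The number of higher members depended on the scaling: it was 3 without haemoglobin, immunoglobulin, mitochondrial and ribosomal protein UMIs (against 17.2% of all genes), 4 with TMM factors (19.3%) and 5 with DESeq2 factors (20.7%). The 9 members together stood at 0.51 to 0.79 over the 4 scalings, total UMIs and these 3.

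In conventional dendritic cells 6 members were higher than in B cells, against 15.7%, and 1 was lower, against 41.5%. The log2 ratio was 1.04 (0.86 to 1.21) for Arpc2, 0.88 (0.67 to 1.08) for Arpc3, 0.83 (0.63 to 1.03) for Arpc1b and -1.13 (-1.61 to -0.70) for Arpc5l. Arpc1a, at 0.59 (-0.09 to 1.19), turned to -0.46 among the 22 cells without a marker of another list. The number higher was 4 without haemoglobin, immunoglobulin, mitochondrial and ribosomal protein UMIs (against 13.8% of all genes), 6 with TMM factors (16.3%) and 7 with DESeq2 factors (17.4%). The 9 members together stood at 0.52 to 0.69 over the 4 scalings.

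The values of neutrophils depended on the scaling. Scaled to total UMIs, 5 members were higher than in B cells, against 11.6% of all genes, and Arpc5l was lower, against 70.5%. The number higher was 1 without haemoglobin, immunoglobulin, mitochondrial and ribosomal protein UMIs (against 8.27% of all genes), 8 with TMM factors (25.7%) and 8 with DESeq2 factors (24.9%), and the member that stayed higher without those UMIs was Arpc1b. The log2 ratio of the 9 members together was 0.52 (0.49 to 0.56) by total UMIs, 1.52 with edgeR's TMM factors and 1.48 with DESeq2's size factors. It was -0.01 without haemoglobin, immunoglobulin, mitochondrial and ribosomal protein UMIs, where Actr2, Actr3 and Arpc1a also turned negative. The median of all genes lay at -1.31 by total UMIs, -1.84 without those UMIs, -0.31 with TMM and -0.35 with DESeq2 factors, and 8 of the 9 members lay above it by total UMIs. Arpc1b stood at 0.72 to 2.25 and Arpc5l at -3.74 to -2.20 over the 4 scalings.

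T cells differed from B cells by the 1.5-fold rule in Arpc5l alone, with a log2 ratio of -1.51 (-1.61 to -1.41). Of the 9 members 0 were higher, against 13.7% of all genes, and 1 was lower, against 18.2%. The other 8 members lay between -0.35 for Arpc3 and 0.22 for Arpc1b. Arpc5l was likewise the member called in CD4 T cells at -1.46 (19.5% of all genes lower) and in CD8 T cells at -1.53 (21.9%).

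In NK cells 2 members were higher than in B cells, against 22.5%, Arpc1b at 1.02 (0.93 to 1.10) and Arpc2 at 0.69 (0.61 to 0.78), and Arpc5l was lower at -1.04 (-1.22 to -0.86), against 20.7%. Arpc2 stood at 0.41 to 0.56 under the 3 other scalings, within 1.5-fold. In macrophages 0 members were higher, against 11.5%, and Arpc5l, at -2.67 (-3.15 to -2.23), was lower, against 59.5%. The number higher was 1 without haemoglobin, immunoglobulin, mitochondrial and ribosomal protein UMIs (against 16.6% of all genes), 2 with TMM factors (19.4%) and 3 with DESeq2 factors (20.6%), and Arpc1a stood at 0.78 to 0.95 under these scalings. The 9 members together had a log2 ratio of -0.18 in macrophages by total UMIs and of 0.16 to 0.34 under the 3 other scalings.

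Plasma cells, the antibody-secreting form of B cells, had 8 members lower than B cells, against 76.2% of all genes, and 0 higher, against 6.05%. The number lower was 8 without haemoglobin, immunoglobulin, mitochondrial and ribosomal protein UMIs (against 44.7% of all genes), 6 with TMM factors (40.8%) and 4 with DESeq2 factors (34.3%). Actr3 had the lowest log2 ratio at -2.60 (-2.91 to -2.32). Arpc1a, at -0.10 (-0.53 to 0.30), was the member within 1.5-fold and stood at 0.75 to 1.02, thus higher, under the 3 other scalings. In erythroid cells 9 of 9 were lower, against 88.7%, and 0 higher, against 5.28%, with log2 ratios from -4.51 (-4.90 to -4.15) for Arpc5l to -1.16 (-1.48 to -0.87) for Arpc1a, which turned to 0.49 to 0.81 under the 3 other scalings. The share of all genes lower by the same rule was thus near that of the members in both gates by total UMIs. In erythroid cells the number lower was 7 without haemoglobin, immunoglobulin, mitochondrial and ribosomal protein UMIs (against 51.5% of all genes). It was 6 with TMM factors (42.2%) and 6 with DESeq2 factors (44.9%). The number higher was 0 (18.7%), 1 (25.6%) and 1 (23.3%) under these scalings.

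In megakaryocytes or platelets, with 25107 UMIs in all, 6 members were higher than in B cells, against 21.4% of all genes, and 2 were lower, against 10.5%. Arpc1a had a log2 ratio of 3.15 (2.24 to 3.93), Arpc2 of 1.65 (1.17 to 2.09), Arpc5 of 1.38 (0.67 to 2.01) and Actr3 of 0.66 (0.02 to 1.23). With TMM factors these were 2.20, 0.69, 0.43 and -0.29, and Arpc3, Arpc4 and Arpc1b, the last at -0.77, also turned negative. The number higher was 3 without haemoglobin, immunoglobulin, mitochondrial and ribosomal protein UMIs (against 17.1% of all genes), 2 with TMM factors (10.8%) and 3 with DESeq2 factors (17.8%). The number lower was 2 (14.7%), 3 (24.1%) and 2 (14.0%) under these scalings. The lower members by total UMIs, Actr2 at -1.13 (-3.41 to 0.41) and Arpc5l at -3.20 (-8.51 to -0.72), rest on 3 and 1 UMIs. The median log2 ratio of all genes was 0 in this gate, where genes with 0 UMIs were set to 3 counts or to equality with B cells. That rule limits the share of all genes lower, so 10.5% is not a like background for members with UMIs.

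Subsets of lymphocytes differed less. Effector or memory T cells had 3 members higher than naive T cells, against 19.5% of all genes, Arpc4 at 0.78 (0.58 to 0.99), Arpc1b at 0.73 (0.62 to 0.83) and Arpc5 at 0.69 (0.55 to 0.83), and 0 lower, against 4.81%. The median of all genes was 0.21 there, and under the 3 other scalings the values of these members were 0.48 to 0.55, 0.42 to 0.49 and 0.39 to 0.45, all within 1.5-fold. Arpc5l stood at 0.14 (-0.08 to 0.36), and at -0.17 to -0.10 under the other scalings. The 8 NK cell markers summed to 723 CPM in effector or memory and 18.3 CPM in naive T cells, and the part of NK cells in these values was not tested. NK cells had Arpc1b at 0.80 (0.71 to 0.89) and Arpc3 at 0.78 (0.66 to 0.89) over T cells, 2 members higher against 21.9% of all genes and 0 lower against 13.3%. These were 0.49 and 0.47 with TMM factors, within 1.5-fold. Both were also within 1.5-fold without haemoglobin, immunoglobulin, mitochondrial and ribosomal protein UMIs, but stayed past it with DESeq2 factors.

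**Figure D5:**
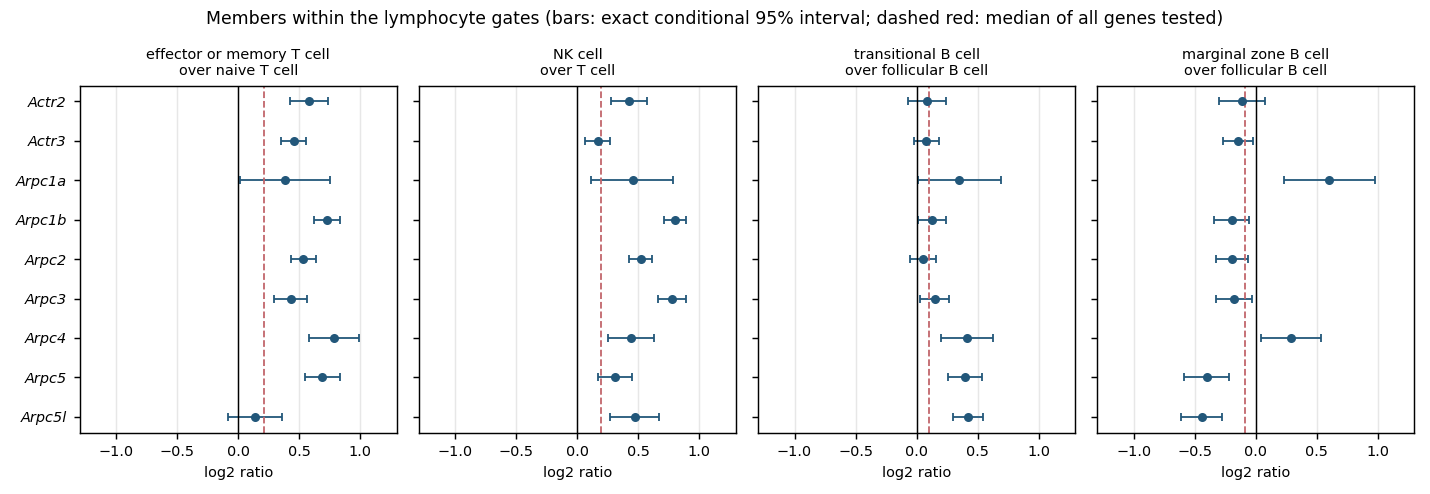
log2 ratio of each Arp2/3 gene between lymphocyte gates, scaled to total UMIs, with exact conditional 95% intervals as bars and the median of all genes tested as a dashed red line. Arpc5l stands at 0.14 between effector or memory and naive T cells while Arpc4, Arpc1b and Arpc5 reach 0.69 to 0.78, and Arpc1a at 0.60 is the member past 1.5-fold in marginal zone B cells.

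Marginal zone B cells had Arpc1a at 0.60 (0.23 to 0.98) over follicular B cells, on 130 and 117 UMIs. It was the 1 member called higher, against 7.52% of all genes, with 0 lower, against 14.2%, and stood at 0.62 to 0.70 under the 3 other scalings. Arpc5 stood at -0.40 (-0.59 to -0.22) and Arpc5l at -0.44 (-0.61 to -0.27) in that comparison.

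In transitional against follicular B cells Arpc5l stood at 0.42 (0.30 to 0.55), Arpc4 at 0.41 (0.20 to 0.63) and Arpc5 at 0.39 (0.26 to 0.53), and no member passed 1.5-fold, against 7.16% of all genes higher and 2.93% lower. Nor did any member in CD8 against CD4 T cells (4.55% of all genes higher and 6.03% lower), where the intervals of the 9 members lay between -0.27 and 0.49. In B cells with UMIs of at least 3 of 8 interferon-induced genes against those with 0, no member passed it either (4.47% higher and 7.22% lower), with intervals between -0.78 and 0.27. In cycling against non-cycling erythroid cells the members with at least 100 UMIs were Arpc3 at 3.31 (2.66 to 4.02) and Arpc5 at 2.55 (1.77 to 3.44), against 91.3% of all genes higher and a median of 4.85, and with DESeq2 factors both turned negative.

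Regulators of the complex were taken from a list of 11 activators and 10 inhibitors or debranching factors, of which 17 had at least 100 UMIs in each comparison with B cells. Their ratios and calls are scaled to total UMIs. In T cells 3 of them were higher and 3 lower, against 13.7% and 18.2% of all genes. Jmy, a nucleation-promoting factor, had a log2 ratio of 1.19 (0.89 to 1.49), Gmfg, a debranching factor of blood cells, 0.69 (0.62 to 0.76) and Coro1c, a coronin, 0.69 (0.46 to 0.92). Coro2a at -1.49 (-1.80 to -1.19), Nckipsd at -1.19 (-1.79 to -0.63) and Hcls1, the cortactin relative of blood cells, at -0.68 (-0.78 to -0.58) were lower. Was itself, the gene targeted in the model, stood at 76.0 CPM in B cells, 67.1 in T cells, 102 in NK cells, 83.9 in neutrophils and 116 in monocytes, which checks no genotype in a pooled table.

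In neutrophils 1 of 17 was higher than in B cells, against 11.6% of all genes, Gmfg at 1.46 (1.37 to 1.56), with 674 against 245 CPM, and 9 were lower, against 70.5%, among them Coro2a at -2.55 (-3.56 to -1.70) and Ap1ar, an inhibitor, at -2.67 (-3.73 to -1.78). The median log2 ratio of the 17 in neutrophils changed sign with the scaling. It was -0.80 by total UMIs and -1.08 without haemoglobin, immunoglobulin, mitochondrial and ribosomal protein UMIs, but 0.45 with TMM and 0.41 with DESeq2 factors. In monocytes 5 were higher and 1 was lower, against 23.1% and 30.7% of all genes, with Coro1c at 1.68 (1.32 to 2.03) and Coro1b at 1.60 (1.39 to 1.80). In conventional dendritic cells 3 were higher and 7 lower, against 15.7% and 41.5% of all genes, with Coro1b at 1.21 (0.71 to 1.68). In macrophages 1 was higher, Coro1b at 1.28 (0.99 to 1.56), and 9 were lower, against 11.5% and 59.5% of all genes, with Coro1a, the main coronin of lymphocytes, at -2.98 (-3.26 to -2.71). In NK cells 5 were higher and 1 was lower, against 22.5% and 20.7% of all genes, with Coro2a at 1.96 (1.73 to 2.18). In plasma cells 15 of 17 were lower, against 76.2% of all genes, and in erythroid cells 16, against 88.7%, and 0 were higher in either.

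Across the 11 cell types most members had similar profiles, as seen from Pearson correlations of log2(CPM + 1), a description over gates that share 1 table and differ in depth. The sum of the members was 326 CPM in erythroid and 915 CPM in plasma cells, against 2777 to 5536 CPM in the others. Most of all genes were also lower than in B cells in these 2 gates (88.7% and 76.2%). The correlation of other gene pairs was not taken as a background. The correlation was 0.99 between Arpc4 and Arpc5, 0.98 between Actr3 and Arpc2 and 0.90 between Actr2 and Actr3. It was 0.47 between the paralogues Arpc1a and Arpc1b, 0.34 between Arpc5 and Arpc5l and -0.07 between Arpc1a and Arpc5l. Among 4119 genes with at least 1000 UMIs over the gates, those most like the sum of the 9 members were Sh3bgrl3 (0.984), Clic1 (0.982), Gnai2 (0.979), Tpm3 (0.979), Cdc42 (0.977), Hcls1 (0.975), Adprh (0.974), Capzb (0.974), Actb (0.973) and Ywhab (0.966). Tpm3 encodes a tropomyosin, Capzb a subunit of the filament capping protein, Actb beta-actin and Cdc42 the small GTPase that activates WASP.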

How the data were processed

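Single-cell 3-prime libraries of 2 spleen samples were mapped to mm10-3.0.0, per the labels' protocols; the mapping and counting program is not given in the sources used here. Raw UMI counts per gene symbol and barcode, as whole numbers with no normalization, were deposited by the authors in 1 table, which was treated as 1 pooled sample; barcodes shared between libraries could not be counted, and no p-value or standard error was computed. Barcodes with at least 200 genes and at most 10% mitochondrial UMIs were kept. Doublets were limited by the marker gates; Scrublet in scanpy 1.11.5, which called 137 of 6588 cells (2.08%), served as an alternative. The member and marker lists, gates and comparisons were chosen with earlier results of these data known. Named genes are all members, the 3 highest and 3 lowest ratios among the listed regulators with at least 100 UMIs per comparison (a selection is printed), and the 10 genes most like the members' sum, without immunoglobulin, T cell receptor, haemoglobin, mitochondrial and ribosomal protein genes. Gates under 20 cells (plasmacytoid dendritic cells, basophils or mast cells) are not described. Poisson, Clopper-Pearson and conditional binomial intervals are at 95% (scipy 1.17.1), and ratios were also scaled with edgeR 4.0.16 TMM and DESeq2 1.42.0 size factors. The ratio step was tested on simulated counts. Alternatives were the mitochondrial limit, gene minimum, gate rules, doublets, thinning to 1000 UMIs, the UMI minimum and the scaling; splitting each gate at its median depth was chosen after seeing the data.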

Additional observations from a re-analysis of the deposited data

How the results depend on the processing

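Over all alternatives, 159 Arpc1b and Arpc5l shares of the 11 cell types stayed within the counting interval of the reported value and 17 did not. Of the member ratios, 1725 stayed on their side of 1.5-fold, 149 of them with another sign inside 1.5-fold, 75 fell below it, 42 rose past it and 18 changed sign from or to a value past it, for reasons that were not tested. Of the 1725, 155 came from dropping the UMI minimum, which cannot change a member's ratio, so they say nothing about stability. With DESeq2 factors, Arpc1a in erythroid over B cells turned to 0.71, in plasma over B cells to 1.02, and in cycling over non-cycling erythroid cells Arpc3 turned to -0.80, Arpc5 to -1.55 and the 9 members together to -1.04. With TMM factors the same values were 0.81, 0.85, -0.22, -0.98 and -0.46, and in megakaryocytes or platelets Actr3 turned to -0.29, Arpc1b to -0.77, Arpc3 to -0.28, Arpc4 to -0.086 and the sum to -0.14. Without haemoglobin, immunoglobulin, mitochondrial and ribosomal protein UMIs, Arpc1a in erythroid over B cells turned to 0.49 and in plasma cells to 0.75, Arpc5 in cycling erythroid cells to -0.14, and 14 of 90 member values were higher than in B cells in place of 26. Among cells without a marker of another list, Arpc1a in conventional dendritic cells turned to -0.46, in macrophages Arpc3 turned to 0.60 and the sum to 0.68, the Arpc5l share was 45.2% in NK cells, 35.6% in CD4 T cells and 29.0% in macrophages, and the Arpc1b share 95.3% in NK cells, 94.8% in CD4 T cells, 93.9% in conventional dendritic cells and 93.3% in macrophages. With cells thinned to 1000 UMIs, the Arpc5l share was 2.65% in neutrophils, 8.33% in macrophages and 38.5% in CD4 T cells, and the Arpc1b share 89.6% in CD8 T cells and 80.0% in plasma cells. Among cells below the median depth of their gate, a split chosen after seeing the data, Actr3 in macrophages turned to 0.62 and the Arpc5l share was 33.7% in CD8 T cells, 36.1% in CD4 T cells, 4.52% in neutrophils and 17.6% in monocytes. With at most 5% mitochondrial UMIs the Arpc1b share of B cells was 89.4%.

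Gates that fell under 20 cells gave no value, which left out megakaryocytes or platelets under 6 alternatives, and plasma cells, neutrophils, monocytes and CD8 T cells where no other list's marker was allowed. Plasma cells, at 19 cells, were also left out among the cells below the median depth of their gate. Depth limits the 25 megakaryocytes or platelets, with 25107 UMIs in all. No paired analysis was possible because no barcode is tied to a sample.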
